A study of Mus musculus with 11 samples.

Results

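The neutrophil granule and maturation genes are 31 mouse genes that granulocytes switch on in sequence as they mature. They were chosen by name from the 55421 genes counted in each library, by matching versioned Ensembl identifiers to symbols of the mouse build GRCm38, and all 31 passed the filter on low counts that left 18125 genes. The genes were sorted by stage into 7 early genes, 13 secondary granule genes, 8 late maturation genes and 3 broad myeloid genes. The early list holds primary granule enzymes and other genes. The secondary granule list likewise names a stage and includes genes such as Cebpe whose products are not granule proteins. RNA came from articular cartilage of knees of C57BL/6 mice aged 14 weeks, which was cut from the joint with a scalpel and sequenced as poly(A)-selected bulk RNA. Knees were taken 4 weeks after DMM (destabilization of the medial meniscus), a knee operation that models osteoarthritis. The first group is the operated knee of 4 mice labelled c-FosDCh. The label is read here as loss of c-Fos in chondrocytes, the cells of cartilage; neither the promoter that drives the deletion nor the deleted exons are stated in the labels. The second group is the operated knee of 3 c-FosWT mice, and the third is the unoperated contralateral knee of 4 c-FosWT mice. All 3 c-FosWT DMM knees came from mice whose contralateral knee was also sequenced, so the 11 libraries stem from 8 animals, and contralateral c-FosDCh knees were not analysed here.

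Neutrophils are made in bone marrow, where granule proteins are synthesised in waves. Promyelocytes make the antimicrobial enzymes of primary granules, myelocytes and metamyelocytes then make the proteins of secondary granules, and the last steps bring gelatinase granules and the surface receptors with which a neutrophil leaves the marrow and follows chemoattractants. A transcript of an early granule gene therefore marks precursors that normally stay in marrow, while receptors such as the one encoded by Cxcr2 mark cells close to release. Articular cartilage has no blood vessels and lies on subchondral bone, whose spaces hold marrow.

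Each library held between 13593454 and 18280558 gene counts, and levels below are CPM, counts scaled to a common library total that TMM corrects for differences in composition. The chondrocyte list of 10 genes summed to 18831 to 67239 CPM in libraries labelled c-FosDCh, 5585 to 14809 CPM in c-FosWT DMM and 17886 to 30404 CPM in contralateral libraries, so cartilage genes were abundant in all 11. Fos, the targeted gene, had 19.4, 10.9, 29.5 and 33.0 CPM in libraries labelled c-FosDCh, 12.1, 14.1 and 9.01 CPM in c-FosWT DMM and 17.1, 24.8, 22.0 and 15.7 CPM in contralateral libraries. Libraries labelled c-FosDCh therefore showed no lower level, with a log2 fold change of 0.98 ± 0.35 (SE) against c-FosWT DMM and an edgeR adjusted p of 0.0736. Fos counts therefore do not check the genotype label, and whether the deposited counts cover the deleted exons could not be tested. Replicate 4 of the libraries labelled c-FosDCh stood apart for the neutrophil genes: it was the lowest of the 11 libraries for 31 of 31 of them, and results that rest on it are given with and without it.

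In every library the neutrophil genes were detected, and their levels differed widely between knees. Their summed counts held 1.50, 0.840, 0.364 and 0.0433% of gene counts in libraries labelled c-FosDCh, 1.09, 1.56 and 1.90% in c-FosWT DMM and 1.06, 0.485, 0.551 and 1.46% in contralateral libraries. The widest 95% Wilson interval of these shares spanned 0.0129 percentage points; such intervals cover counting error only, since reads without molecular identifiers are not independent molecules. The mean share was 0.687 ± 0.634% (SD, n = 4), 1.52 ± 0.41% (n = 3) and 0.890 ± 0.459% (n = 4) in these groups. The shares in the libraries labelled c-FosDCh thus ran from the lowest to the third highest of all 11, and the 3 c-FosWT DMM shares lay above 3 of the 4 contralateral ones. In bulk RNA, fewer neutrophil-lineage cells and less of their RNA per cell cannot be told apart. Per kilobase of exon and averaged over all libraries, S100a9 stood first with 2044 CPM, followed by S100a8 with 1516, Ngp with 1231, Lyz2 with 806 and Camp with 604 CPM per kilobase. Padi4 with 10.5, Olfm4 with 6.14, Gfi1 with 6.10 and Trem1 with 3.21 CPM per kilobase closed the order. The lowest single count of any of the genes was 10, for Wfdc21 in c-FosDCh replicate 4.

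**Figure D1:**
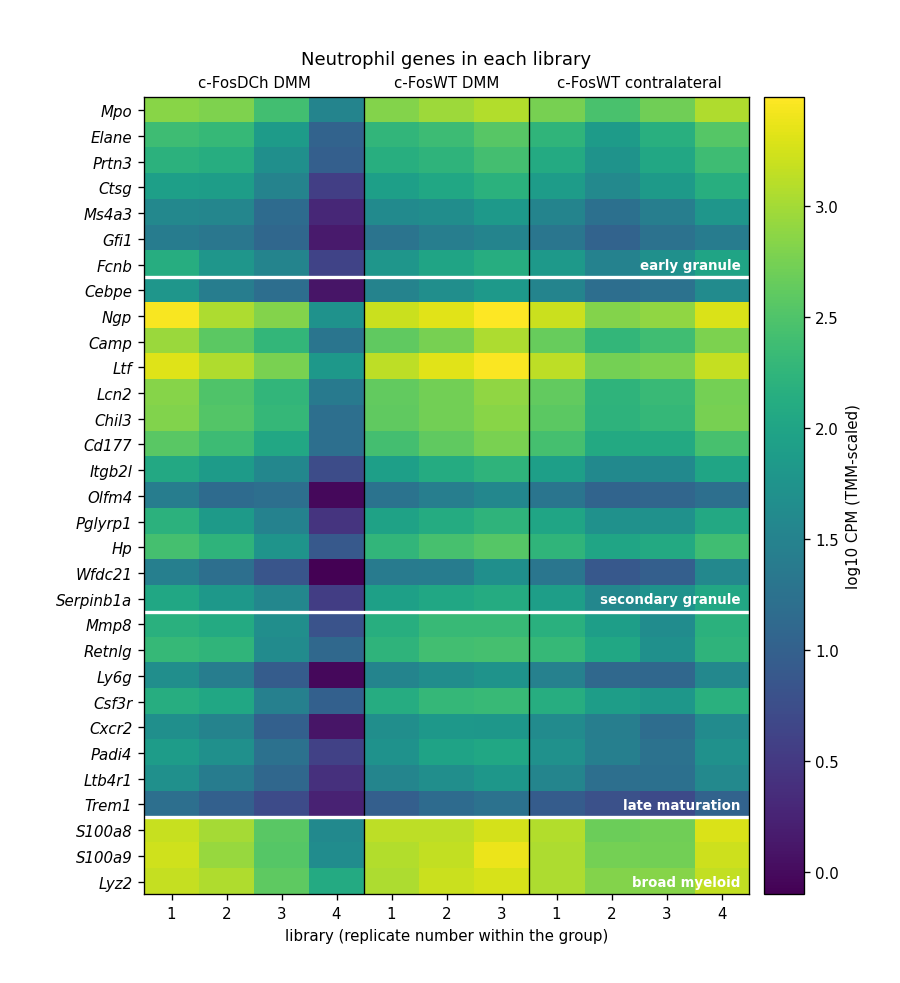
Level of each of the 31 genes (rows, grouped by stage) in each of the 11 libraries (columns), as log10 CPM on the colour scale, with no averaging. The column of c-FosDCh DMM replicate 4 is the darkest for all 31 genes, and c-FosWT DMM replicate 3 is the brightest for 28 of them.

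The early list holds the enzymes of primary granules and other genes placed at the stage of their precursors. Mpo encodes myeloperoxidase, which makes hypochlorous acid, and had 703, 623, 253 and 33.1 CPM in libraries labelled c-FosDCh, 663, 929.9 and 1181 CPM in c-FosWT DMM and 567, 291, 515 and 1132 CPM in contralateral libraries. Elane, the gene of neutrophil elastase, had 236, 200.2, 73.0 and 11.2 CPM in libraries labelled c-FosDCh, 185, 229 and 365 CPM in c-FosWT DMM and 176, 72.9, 148 and 345 CPM in contralateral libraries. The libraries labelled c-FosDCh reached from below every other library into the c-FosWT DMM range, and the groups overlapped for both genes. Prtn3, the gene of the related protease proteinase 3, had 162, 137, 49.0 and 9.77 CPM in libraries labelled c-FosDCh, 141, 172 and 259 CPM in c-FosWT DMM and 125, 54.6, 112 and 234 CPM in contralateral libraries. Ctsg encodes cathepsin G, another serine protease of the same granules, and ranged from 3.65 to 84.9 CPM in libraries labelled c-FosDCh, from 83.3 to 156 CPM in c-FosWT DMM and from 38.6 to 142 CPM in contralateral libraries. Ms4a3, a membrane protein gene used to mark granulocyte and monocyte progenitors, had 37.5, 35.2, 14.1 and 1.99 CPM in libraries labelled c-FosDCh, 41.0, 45.1 and 67.2 CPM in c-FosWT DMM and 33.4, 16.8, 27.6 and 61.9 CPM in contralateral libraries. It was the one gene of the 31 for which all 4 libraries labelled c-FosDCh lay below all 3 c-FosWT DMM libraries; of all tested genes 15.8% did so. Gfi1 encodes a transcriptional repressor needed for neutrophil production and ranged from 1.43 to 25.6, from 19.2 to 32.5 and from 10.9 to 25.5 CPM in libraries labelled c-FosDCh, c-FosWT DMM and contralateral. Fcnb encodes ficolin B, a lectin that starts complement activation, and ranged from 4.21 to 136, from 61.4 to 136 and from 31.1 to 97.7 CPM in the same groups. An antisense gene shares 512 bases of exon with Mpo, 159 with Prtn3 and 101 with Gfi1, and the strand of the deposited counts is not stated, so the levels of these 3 genes are uncertain to that extent.

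The secondary granule list was the most abundant of the granule lists in every library. Ngp, the gene of neutrophilic granule protein, had 2878, 1121, 659.7 and 53.4 CPM in libraries labelled c-FosDCh, 1607, 2129 and 3079.7 CPM in c-FosWT DMM and 1595, 670.3, 791 and 1958 CPM in contralateral libraries. Ltf encodes lactoferrin, which binds iron, and had 2043, 1145, 588 and 64.8 CPM in libraries labelled c-FosDCh, 1346, 2118 and 2890.01 CPM in c-FosWT DMM and 1368, 548, 601 and 1510.2 CPM in contralateral libraries. Camp encodes the antimicrobial peptide cathelicidin and had 882, 389.8, 189.6 and 19.7 CPM in libraries labelled c-FosDCh, 407, 559 and 1103 CPM in c-FosWT DMM and 453, 186, 246 and 601 CPM in contralateral libraries. For these 3 genes c-FosDCh replicate 1 lay among the highest libraries and c-FosDCh replicate 4 was the lowest. Lcn2, the gene of the siderophore-binding protein lipocalin 2, ranged from 23.7 to 682 CPM in libraries labelled c-FosDCh, from 423 to 782 CPM in c-FosWT DMM and from 174 to 548 CPM in contralateral libraries. Chil3 (a chitinase-like protein), Cd177 (a surface protein of neutrophils) and Hp (haptoglobin, which binds free haemoglobin) had up to 636, 368 and 269.7 CPM in libraries labelled c-FosDCh, 701, 575 and 351 CPM in c-FosWT DMM and 569.7, 275 and 241 CPM in contralateral libraries. Pglyrp1 (a protein that binds bacterial peptidoglycan), Serpinb1a (an inhibitor of neutrophil serine proteases) and Itgb2l (an integrin beta chain) had at most 160.5, 108 and 117 CPM in libraries labelled c-FosDCh, 169, 130.0 and 170.2 CPM in c-FosWT DMM and 116, 112 and 103 CPM in contralateral libraries. Cebpe encodes the transcription factor that drives secondary granule genes and ranged from 1.27 to 60.7, from 32.2 to 69.1 and from 15.6 to 42.2 CPM in libraries labelled c-FosDCh, c-FosWT DMM and contralateral. Olfm4, the gene of olfactomedin 4, a protein carried by a subset of neutrophils, ranged from 0.953 to 26.1, from 18.27 to 36.5 and from 11.4 to 19.9 CPM in these groups. Wfdc21, a gene of a small protein with a WAP domain, ranged from 0.794 to 28.5, from 25.1 to 48.2 and from 7.71 to 37.4 CPM. Genes with close copies in the mouse genome, among them Chil3, Ly6g, Retnlg, Serpinb1a and Lyz2, are uncertain where reads could not be placed uniquely. Olfm4 shares 153 bases of exon with another gene on the same strand, so its level is uncertain to that extent.

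The late list holds the enzymes and receptors of neutrophils near release. Mmp8, the gene of neutrophil collagenase, had 151, 123, 46.6 and 6.59 CPM in libraries labelled c-FosDCh, 141, 209.6 and 207 CPM in c-FosWT DMM and 149.7, 82.3, 44.4 and 153 CPM in contralateral libraries. Retnlg encodes a resistin-like protein and had 204, 176, 42.5 and 12.9 CPM in libraries labelled c-FosDCh, 169, 249 and 266 CPM in c-FosWT DMM and 199, 110.4, 50.2 and 169.8 CPM in contralateral libraries. Csf3r encodes the receptor for granulocyte colony-stimulating factor (G-CSF) and had 138, 108, 28.9 and 10.1 CPM in libraries labelled c-FosDCh, 134, 196 and 211 CPM in c-FosWT DMM and 135, 80.2, 63.6 and 152 CPM in contralateral libraries. These 3 genes were again lowest in c-FosDCh replicate 4, but contralateral replicate 3 was the lowest contralateral library for each. Cxcr2, the gene of the chemokine receptor that draws neutrophils out of the marrow, had 48.3, 32.4, 10.0 and 1.27 CPM in libraries labelled c-FosDCh, 46.6, 64.1 and 63.9 CPM in c-FosWT DMM and 42.5, 27.6, 15.3 and 43.3 CPM in contralateral libraries. Padi4 encodes the enzyme that citrullinates histones when neutrophils release chromatin and had 76.4, 50.2, 17.6 and 3.97 CPM in libraries labelled c-FosDCh, 54.4, 97.2 and 109 CPM in c-FosWT DMM and 52.4, 28.1, 17.8 and 51.9 CPM in contralateral libraries. For Cxcr2 and Padi4 all 3 c-FosWT DMM libraries lay above all 4 contralateral ones, as they did for 10.1% of all tested genes. Ly6g, the surface marker used to sort mouse neutrophils, ranged from 0.953 to 46.5, from 32.9 to 56.1 and from 12.6 to 37.2 CPM in libraries labelled c-FosDCh, c-FosWT DMM and contralateral. Ltb4r1, the gene of a leukotriene B4 receptor, ranged from 2.46 to 50.7, from 33.9 to 63.9 and from 16.3 to 39.4 CPM. Trem1, an activating receptor gene shared with monocytes, was the least abundant, with 16.0, 10.1, 5.25 and 1.75 CPM in libraries labelled c-FosDCh, 9.66, 14.3 and 17.6 CPM in c-FosWT DMM and 8.77, 6.21, 5.01 and 10.96 CPM in contralateral libraries.

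The broad list holds genes that most myeloid cells use. S100a8 and S100a9 encode the subunits of calprotectin. S100a8 had 1539, 1025, 372 and 39.7 CPM in libraries labelled c-FosDCh, 1351, 1342 and 1802 CPM in c-FosWT DMM and 1186, 489, 519.9 and 1912 CPM in contralateral libraries. S100a9 had 1676, 852, 347 and 44.9 CPM in libraries labelled c-FosDCh, 1199, 1422 and 2389.8 CPM in c-FosWT DMM and 1100.3, 542, 535 and 1629 CPM in contralateral libraries. Lyz2 encodes lysozyme, which macrophages make as well, and had 1497, 1165, 403 and 123 CPM in libraries labelled c-FosDCh, 1104, 1587 and 1875 CPM in c-FosWT DMM and 1114, 666, 695 and 1436 CPM in contralateral libraries. In c-FosDCh replicate 4 the ratio of Lyz2 to the higher of both S100 genes was larger than in any other library.

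The genes moved together across knees. A single value per library, the mean of the 31 genes on the log2 CPM scale, held 96.1% of their variance around each gene's own mean, a description over libraries with no test. The SD of that mean over the 11 libraries was 1.42 log2 units, against residual SDs from 0.124 for Itgb2l to 0.560 for Trem1. Without c-FosDCh replicate 4, over 10 libraries, the share was 90.04%, the SD of the mean 0.750 and the residual SDs 0.101 for Ltb4r1 to 0.452 for Olfm4. Within the libraries labelled c-FosDCh, replicate 1 exceeded replicate 4 by a median of 27.4-fold, from 9.15-fold for Trem1 to 57.7-fold for Pglyrp1. Within c-FosWT DMM the highest library exceeded the lowest by a median of 1.85-fold, from 1.34-fold for S100a8 to 2.71-fold for Camp. Contralateral libraries lay between, with a median of 2.95-fold, from 1.75-fold for Olfm4 to 4.85-fold for Wfdc21. For some genes this order rests on c-FosDCh replicate 4. Without that replicate, Mpo ran from 253 to 703 CPM in libraries labelled c-FosDCh, a smaller fold range than the contralateral 291 to 1132 CPM. Ngp then ran from 659.7 to 2878 CPM, a larger fold range than the contralateral 670.3 to 1958 CPM. The second lowest library was c-FosDCh replicate 3 for 20 genes, contralateral replicate 2 for 9 and contralateral replicate 3 for 2, while the highest was c-FosWT DMM replicate 3 for 28, c-FosWT DMM replicate 2 for 2 and contralateral replicate 4 for 1.

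**Figure D2:**
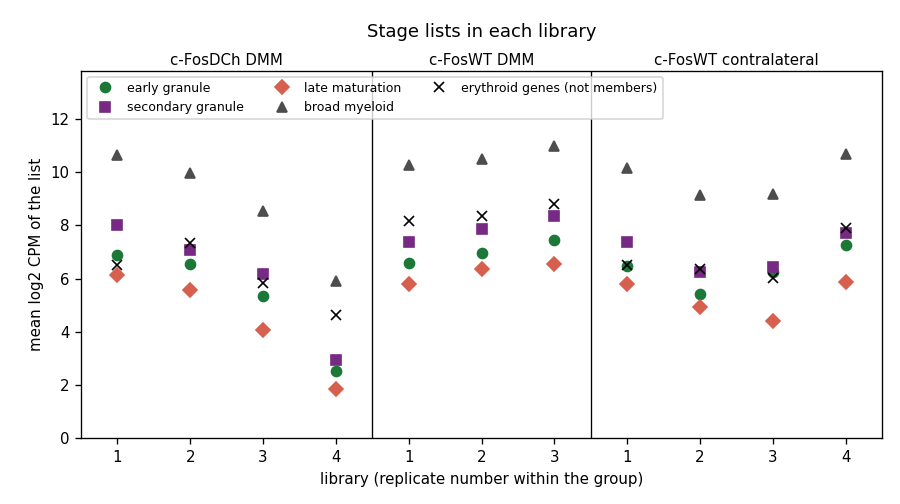
Mean log2 CPM of each stage list (coloured symbols) and of 15 erythroid genes (crosses) in each library. The 4 stage lists mostly rise and fall together. An exception is contralateral replicate 3, where against replicate 2 the early score is higher (6.26 against 5.42) and the late score lower (4.42 against 4.94). Early scores run from 2.52 to 6.87 over the libraries labelled c-FosDCh, 6.57 to 7.46 over c-FosWT DMM and 5.42 to 7.26 over contralateral libraries.

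The bases upstream of the starts of the 31 genes were searched for the DNA motifs of factors known for granulopoiesis. Any link of these motifs to the shared movement of the genes across knees was not tested. RefSeq promoters of GRCm38.p6 matched 27 of the 31 genes with 29 entries, and the 250 bases before each start were read on both strands; Cebpe, Hp, Wfdc21 and Serpinb1a had no entry. TTNNGNAA, the pattern bound by the C/EBP family to which the product of Cebpe belongs, occurred in 18 of 29 entries (62.1%), against 36.8% of 32851 promoter entries of all genes. By stage it occurred in 3 of 8 early, 7 of 9 secondary granule, 5 of 9 late and 3 of 3 broad entries. GAGGAAGT, the motif of the myeloid factor PU.1, occurred in 9 of 29 entries (31.03%), against 2.44% of all entries, in 3 of 8 early, 2 of 9 secondary granule, 3 of 9 late and 1 of 3 broad ones. The 2 Ly6g entries overlap and hold the same GAGGAAGT, so the 9 entries are 8 sites in 8 of 27 genes. TGTGGTTT, a RUNX motif, occurred in 1 of 29 (3.45%), against 1.50% of all, and TTGCGCAA, the C/EBP palindrome, which any TTNNGNAA search also finds, in 0 of 29 against 0.164%. These shares are descriptions of the letters in these windows, not evidence of binding. The 3 early entries with GAGGAAGT were those of Mpo, Elane and Prtn3, the 3 early genes with the highest CPM, and the 30 bases around each match are shown with the match in capitals, on the plus strand of GRCm38.p6, at chr11:87793549-87793578, chr10:79886216-79886245 and chr10:79879561-79879590.
Mpo: gtggagagagaGAGGAAGTtgcctttgtcc
Elane: cgtgtcccaggGAGGAAGTagggctgtggc
Prtn3: caaactggaagGAGGAAGTgggacccacag

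The match begins 224, 85 and 95 bases before the RefSeq start in these genes, and the flanks differ. The searched window of Prtn3 lies wholly inside the GENCODE gene (250 bases), and those of Mpo and Elane lie inside it in part (203 and 65 bases). Of the 9 entries whose window lies wholly outside the GENCODE gene, 1 per stage list is shown next, 5′ to 3′ on the strand of the gene, with TTNNGNAA and GAGGAAGT matches on either strand in capitals. They are Ms4a3 (early; chr19:11640852-11641101, minus strand), Chil3 (secondary granule; chr3:106167565-106167814, minus strand), Mmp8 (late; chr9:7558179-7558428, plus strand) and S100a9 (broad; chr3:90695722-90695971, minus strand).
Ms4a3: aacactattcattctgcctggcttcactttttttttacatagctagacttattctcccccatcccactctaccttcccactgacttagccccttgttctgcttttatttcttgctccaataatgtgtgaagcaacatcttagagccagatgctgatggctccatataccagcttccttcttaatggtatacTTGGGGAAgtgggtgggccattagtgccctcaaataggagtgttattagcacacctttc
Chil3: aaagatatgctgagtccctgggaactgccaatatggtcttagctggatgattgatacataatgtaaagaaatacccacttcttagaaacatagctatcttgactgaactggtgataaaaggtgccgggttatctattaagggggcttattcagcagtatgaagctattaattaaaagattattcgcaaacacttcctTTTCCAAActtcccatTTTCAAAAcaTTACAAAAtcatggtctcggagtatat
Mmp8: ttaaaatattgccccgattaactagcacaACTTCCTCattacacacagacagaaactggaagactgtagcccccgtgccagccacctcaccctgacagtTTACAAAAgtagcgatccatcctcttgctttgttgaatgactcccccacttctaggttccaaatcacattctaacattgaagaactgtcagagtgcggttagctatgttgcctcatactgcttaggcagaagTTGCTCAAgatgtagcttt
S100a9: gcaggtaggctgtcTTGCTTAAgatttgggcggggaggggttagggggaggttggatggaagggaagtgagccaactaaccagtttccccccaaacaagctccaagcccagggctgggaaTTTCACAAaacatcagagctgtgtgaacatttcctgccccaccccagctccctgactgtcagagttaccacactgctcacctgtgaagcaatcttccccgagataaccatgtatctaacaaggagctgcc

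Ms4a3 holds 1 TTNNGNAA match, Chil3 holds 3 within 53 bases of its start, and S100a9 holds 2. Mmp8 holds 2 and also 1 GAGGAAGT match, 221 bases before its start on the opposite strand. Every entry shown in full thus holds a match, but not all of the 9 entries outside the GENCODE gene do. Ctsg (early) and Ltb4r1 (late), also among the 9, hold neither motif, and Mmp8 alone of the 9 holds GAGGAAGT.

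The balance between early and late genes varied between single knees more than between group means. The early list minus the late list, as a difference of mean log2 CPM, was 0.73, 0.97, 1.26 and 0.68 in libraries labelled c-FosDCh, 0.78, 0.62 and 0.93 in c-FosWT DMM and 0.69, 0.48, 1.84 and 1.38 in contralateral libraries. The means were 0.910 ± 0.265 (SD, n = 4), 0.777 ± 0.156 (n = 3) and 1.10 ± 0.63 (n = 4), so the groups overlapped and the spread among contralateral knees exceeded every difference between group means. Contralateral replicates 3 and 4 had the largest early surplus. Relative to the library's overall neutrophil level, all 7 early genes were above their own average in contralateral replicate 3 (median residual 0.52 log2 units) and 0 of 8 late genes were (median -0.32). In contralateral replicate 4, 5 of 7 early genes (median 0.34) and 1 of 8 late genes (median -0.15) were above it. Contralateral replicate 2 showed the opposite order, with 1 of 7 early genes (median -0.15) and 6 of 8 late genes (median 0.28) above. The early genes did not always move as 1 set: in c-FosDCh replicate 1 only 1 of 7, Fcnb (0.37), was above average. Of the 13 secondary granule genes, 10 were above average in c-FosDCh replicate 1, in c-FosDCh replicate 3 and in c-FosWT DMM replicate 3 (medians 0.15, 0.18 and 0.09), and 3 were in c-FosDCh replicate 4 (median -0.27). In that replicate 5 of 7 early genes (median 0.07) and 5 of 8 late genes (median 0.49) were above average. Among the late genes, Cxcr2 and Ly6g (both -0.51) and Mmp8 (-0.04) were below it. The late gene Trem1, at 1.55, and the broad gene Lyz2, at 0.88 log2 units, lay furthest above what the library's overall level gives. Both genes are also made by monocytes or macrophages. The 10 marker genes of those cells summed to 780.7 to 1128 CPM in libraries labelled c-FosDCh. The sums were 1119 to 1278 CPM in c-FosWT DMM and 996 to 1260.2 CPM in contralateral libraries. F13a1 held much of these sums, with 387, 508, 693 and 635 CPM in libraries labelled c-FosDCh. Csf1r had 188, 194, 86.4 and 55.7 CPM there. The mean log2 CPM of the 10 genes was 4.24 to 6.39 in libraries labelled c-FosDCh. It was 6.48 to 6.70 in c-FosWT DMM and 6.16 to 6.66 in contralateral libraries. The part of these cells in the residuals was not tested. Olfm4 in c-FosDCh replicate 3, at 1.07 log2 units, was the only other residual above 1.

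As a single pair of genes, Elane (early) was set against Cxcr2 (late). The difference of their log2 CPM was 2.29, 2.62, 2.85 and 3.02 in libraries labelled c-FosDCh, 1.98, 1.83 and 2.51 in c-FosWT DMM and 2.05, 1.40, 3.26 and 2.99 in contralateral libraries. Elane thus exceeded Cxcr2 in 11 of 11 libraries. Between libraries labelled c-FosDCh and c-FosWT DMM the mean differed by 0.59 (2.70 ± 0.32 against 2.11 ± 0.36, SD, n = 4 and 3; exact two-sided permutation p = 0.114, adjusted p = 0.343 over 3 tests). Between c-FosWT DMM and contralateral knees it differed by -0.32 (2.11 ± 0.36 against 2.43 ± 0.86; exact permutation p = 0.514, adjusted p = 0.6). Leaving out 1 library at a time moved it between -0.66 (contralateral replicate 2 left out) and -0.04 (contralateral replicate 3 left out). Between libraries labelled c-FosDCh and contralateral knees it differed by 0.27 (2.70 ± 0.32 against 2.43 ± 0.86; exact permutation p = 0.6, adjusted p = 0.6). Here it was -0.07 with contralateral replicate 2 left out and 0.55 with contralateral replicate 3 left out. The smallest p these group sizes allow is 0.0286, and the tests take knees of one animal as independent. None of the 3 differences passed.

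**Figure D3:**
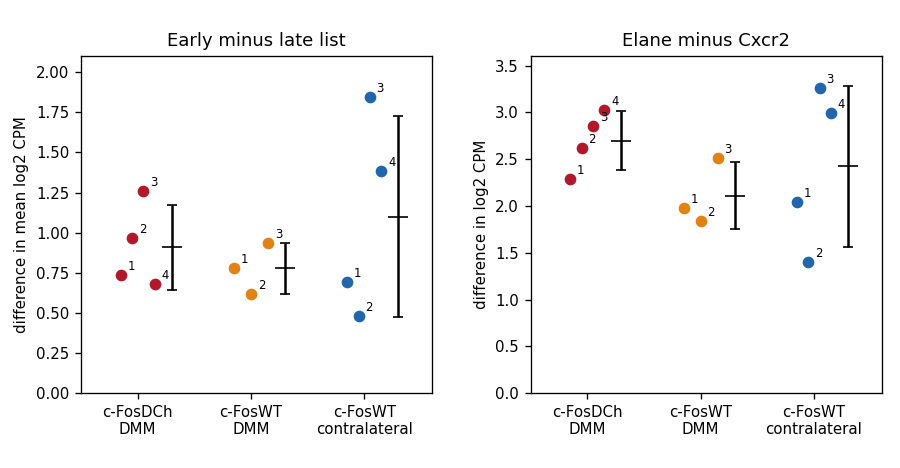
Early minus late list (left) and Elane minus Cxcr2 (right) in log2 CPM, 1 numbered point per library, with the group mean and SD as black bars. The groups overlap in both panels, and contralateral replicates 3 and 4 lie highest or near the top, at 1.84 and 1.38 on the left and 3.26 and 2.99 on the right.

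The first comparison asks whether neutrophil genes differ between operated knees of the 2 genotypes. All 31 genes had a lower mean level in operated knees labelled c-FosDCh than in operated c-FosWT knees (median log2 fold change -1.09), but 0 of 31 passed edgeR's quasi-likelihood test at a Benjamini-Hochberg adjusted p under 0.05. Across all 18125 genes 14.4% passed, 10.6% as higher and 3.79% as lower. At an unadjusted p under 0.05 the count was 0 of 31 against 39% of all genes, and DESeq2 called 0 of 31, with 1 at an unadjusted p under 0.05, against 29.6 and 43.3% of all genes. The median SE of the 31 fold changes was 0.77, against 0.25 over all genes. By stage, the median log2 fold change was -1.09 for early, -0.96 for secondary granule, -1.15 for late and -1.01 for broad genes, against -0.01 over all genes. Among early genes the log2 fold change (± SE) was -1.20 ± 0.77 (edgeR adjusted p = 0.256) for Mpo, -0.99 ± 0.80 (edgeR adjusted p = 0.355) for Elane and -1.09 ± 0.75 (edgeR adjusted p = 0.281) for Prtn3. Among secondary granule genes the log2 fold change (± SE) was -0.95 ± 0.89 (edgeR adjusted p = 0.43) for Ngp, -1.14 ± 0.82 (edgeR adjusted p = 0.304) for Ltf and -0.90 ± 0.89 (edgeR adjusted p = 0.456) for Camp. The receptor gene Cxcr2 had the largest difference (-1.34) and Trem1 the smallest (-0.74), and adjusted p ran from 0.174 to 0.484 over the 31 genes. Among late genes the log2 fold change (± SE) was -1.07 ± 0.76 (edgeR adjusted p = 0.303) for Retnlg, -1.19 ± 0.77 (edgeR adjusted p = 0.258) for Mmp8 and -1.34 ± 0.70 (edgeR adjusted p = 0.174) for Csf3r. Among broad genes the log2 fold change (± SE) was -0.93 ± 0.66 (edgeR adjusted p = 0.299) for Lyz2, -1.19 ± 0.86 (edgeR adjusted p = 0.307) for S100a9 and -1.01 ± 0.88 (edgeR adjusted p = 0.395) for S100a8. Without overlap between the groups, 0 of 31 genes were higher and 1 of 31, Ms4a3, was lower in the libraries labelled c-FosDCh, against 17.2 and 15.8% of all genes. The size rested on single libraries: without c-FosDCh replicate 4 the median was -0.72, and without c-FosDCh replicate 1, the highest of that group, it was -1.76, where 11 of 31 genes had an unadjusted p under 0.05, against 46% of all genes in that fit. There 24.6% of all genes and 0 of the 31 passed, the lowest adjusted p of the 31 being 0.0663. When libraries were scaled by their totals alone, the median of all genes shifted to -0.18 and that of the 31 genes to -1.19, and the 2157 genes called split into 1176 higher and 981 lower, against 1929 higher and 687 lower of 2616 under TMM.

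The second comparison sets the operated against the unoperated knees of c-FosWT mice. All 31 genes had a higher mean level in c-FosWT DMM than in contralateral libraries, the median log2 fold change being 0.78, and 0 of 31 passed, as did 0% of all genes. At an unadjusted p under 0.05 the count was 0 of 31 against 19.9% of all genes, and DESeq2 called 0 of 31, with 0 at an unadjusted p under 0.05, against 4.98 and 22.6% of all genes. The stage medians were 0.54 for early, 0.86 for secondary granule, 0.85 for late and 0.64 for broad genes, from 0.48 for Elane to 1.21 for Padi4, with adjusted p from 0.374 to 0.733. Among early genes the log2 fold change (± SE) was 0.56 ± 0.77 (edgeR adjusted p = 0.681) for Mpo, 0.48 ± 0.80 (edgeR adjusted p = 0.733) for Elane and 0.54 ± 0.75 (edgeR adjusted p = 0.685) for Prtn3. Among secondary granule genes the log2 fold change (± SE) was 0.86 ± 0.89 (edgeR adjusted p = 0.583) for Ngp, 1.07 ± 0.82 (edgeR adjusted p = 0.461) for Ltf and 0.89 ± 0.89 (edgeR adjusted p = 0.568) for Camp. The 2 genes without overlap between the groups, Cxcr2 and Padi4, make 2 of 31, against 10.1% of all genes higher without overlap. Among late genes the log2 fold change (± SE) was 0.78 ± 0.76 (edgeR adjusted p = 0.559) for Retnlg, 0.79 ± 0.77 (edgeR adjusted p = 0.557) for Mmp8 and 0.74 ± 0.70 (edgeR adjusted p = 0.542) for Csf3r. Among broad genes the log2 fold change (± SE) was 0.64 ± 0.66 (edgeR adjusted p = 0.583) for Lyz2, 0.81 ± 0.86 (edgeR adjusted p = 0.592) for S100a9 and 0.55 ± 0.88 (edgeR adjusted p = 0.728) for S100a8. Fitted on the c-FosWT libraries alone, 10 of 31 genes had an unadjusted p under 0.05, against 30.8% of all genes, and the lowest adjusted p of the 31 was 0.0953.

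Within the 3 mice that gave both knees the difference was uneven. In the mouse of c-FosWT DMM replicate 1, 17 of 31 genes were higher in the operated knee, with a median difference of 0.01 log2 CPM. In the mouse of replicate 2, 31 of 31 were higher, with a median of 1.57. In the mouse of replicate 3, 30 of 31 were higher, with a median of 0.54. The early list minus the late list changed by 0.09, 0.14 and -0.45 in these mice, operated minus unoperated. With the animal as a block, 0 of 31 genes passed, the median was 0.67, and 7 of 31 had an unadjusted p under 0.05, against 19.2% of all genes.

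The third comparison, of operated c-FosDCh-labelled with unoperated c-FosWT knees, mixes surgery and genotype and shares its libraries with the other 2. Here 1 of 31 genes, Trem1, had a higher and 30 a lower mean, the median log2 fold change being -0.28, and 0 of 31 passed, as did 0% of all genes. At an unadjusted p under 0.05 the count was 0 of 31 against 8.34% of all genes, and DESeq2 called 0 of 31, with 0 at an unadjusted p under 0.05, against 0.226 and 10.1% of all genes. The stage medians were -0.56 for early, -0.15 for secondary granule, -0.26 for late and -0.38 for broad genes, from -0.72 for Ctsg to 0.10 for Trem1, with adjusted p from 0.712 to 0.998. Among early genes the log2 fold change (± SE) was -0.64 ± 0.72 (edgeR adjusted p = 0.744) for Mpo, -0.51 ± 0.74 (edgeR adjusted p = 0.796) for Elane and -0.56 ± 0.70 (edgeR adjusted p = 0.766) for Prtn3. Among secondary granule genes the log2 fold change (± SE) was -0.09 ± 0.83 (edgeR adjusted p = 0.97) for Ngp, -0.07 ± 0.76 (edgeR adjusted p = 0.975) for Ltf and -0.00 ± 0.83 (edgeR adjusted p = 0.998) for Camp. All 31 genes overlapped between the groups, against 2.28% of all genes higher and 2.12% lower without overlap. Among late genes the log2 fold change (± SE) was -0.28 ± 0.71 (edgeR adjusted p = 0.882) for Retnlg, -0.39 ± 0.72 (edgeR adjusted p = 0.834) for Mmp8 and -0.59 ± 0.65 (edgeR adjusted p = 0.737) for Csf3r. Among broad genes the log2 fold change (± SE) was -0.29 ± 0.62 (edgeR adjusted p = 0.857) for Lyz2, -0.38 ± 0.81 (edgeR adjusted p = 0.857) for S100a9 and -0.46 ± 0.82 (edgeR adjusted p = 0.831) for S100a8. Leaving out c-FosDCh replicate 4 turned the median to 0.10, with 21 of 31 genes positive, and leaving out c-FosDCh replicate 1 made it -0.97.

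**Figure D4:**
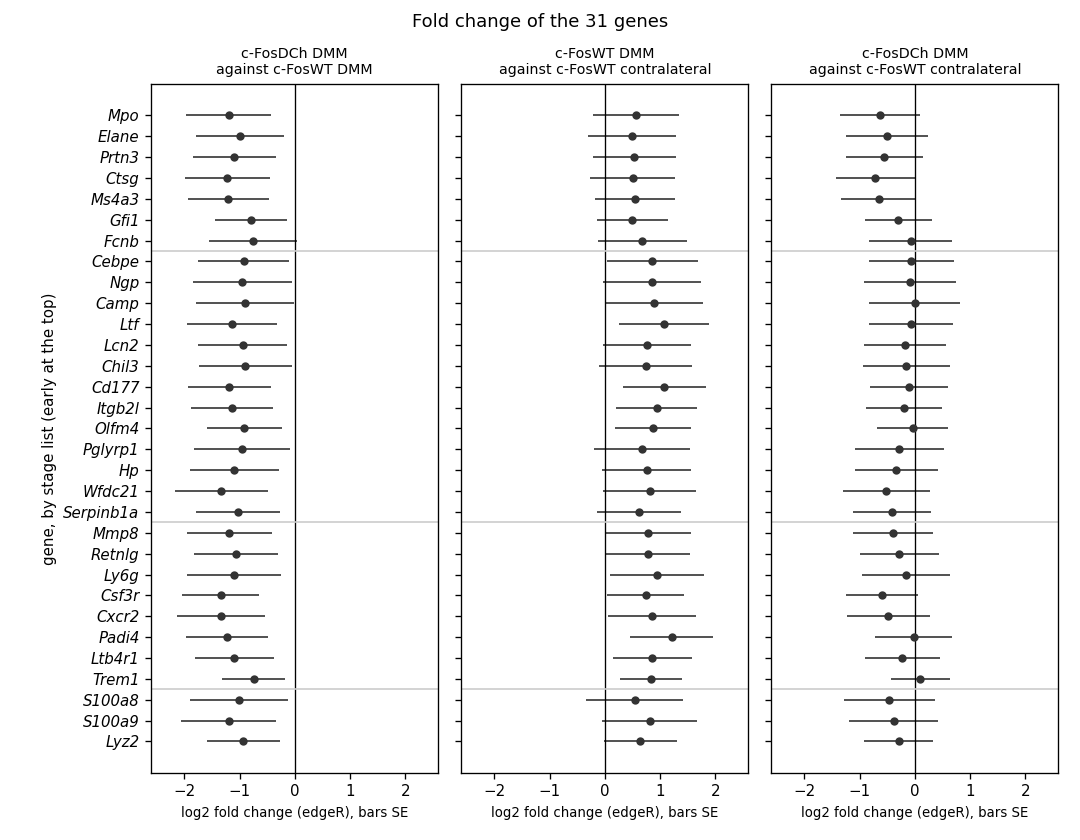
Log2 fold change of each of the 31 genes (points) with its SE (bars) from edgeR in the 3 comparisons, genes ordered by stage with the early list at the top. All 31 points lie left of 0 in the left panel and right of 0 in the middle panel, and in the right panel 30 lie left of 0; none passed the test.

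Other genes listed for the neutrophil programme and its regulation gave no call either, and most had the same directions. Of the 6 NADPH oxidase genes, which build the enzyme of the respiratory burst, 0 passed in any comparison; 6 of 6 had a lower mean in libraries labelled c-FosDCh, set against c-FosWT DMM (median log2 fold change -1.08) and 6 of 6 a higher mean in c-FosWT DMM than in contralateral knees (median 0.74). Cybb, the gene of the catalytic subunit, had 434, 269.7, 119 and 20.7 CPM in libraries labelled c-FosDCh, 375, 524 and 527 CPM in c-FosWT DMM and 317, 180.2, 164 and 379.8 CPM in contralateral libraries. Of 12 genes for surface receptors and tertiary granules 0 passed, with medians of -1.17 and 0.74 in these comparisons. Mmp9, the gelatinase gene, had 682, 730.3, 320.1 and 191 CPM in libraries labelled c-FosDCh, 1056, 1054 and 1052 CPM in c-FosWT DMM and 793, 635, 838 and 951 CPM in contralateral libraries, so its 3 c-FosWT DMM values were nearly equal and lay above all others. Of all tested genes, 10.1% were higher without overlap in c-FosWT DMM than in contralateral libraries. Between the DMM groups, 15.8% were lower without overlap in libraries labelled c-FosDCh. The log2 fold change of Mmp9 between the DMM groups was -1.13 ± 0.39 (edgeR adjusted p = 0.0683). Mmp9 is also made by osteoclasts and macrophages. Of 11 regulators of granulopoiesis 10 were tested and 0 passed, with medians of -1.14 (8 of 10 lower) and 0.57 (9 of 10 higher). Cxcl12, the stromal chemokine gene that holds neutrophils in marrow, had 555, 535, 277 and 58.6 CPM in libraries labelled c-FosDCh, 639, 992 and 707 CPM in c-FosWT DMM and 468, 374, 439.6 and 698 CPM in contralateral libraries. Runx1, a blood and cartilage transcription factor gene, had 204, 296, 257 and 294 CPM in libraries labelled c-FosDCh, 227, 230.3 and 222 CPM in c-FosWT DMM and 222, 288, 212 and 299 CPM in contralateral libraries. Its log2 fold change was 0.21 between the DMM groups and -0.17 between the c-FosWT knees, opposite in sign to the list medians. Csf3, the gene of G-CSF, had 0 counts in 11 of 11 libraries, which allows up to 0.221 CPM at 3 counts in the shallowest library.

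Genes for neutrophil attractants differed in abundance. Of 9 listed genes 5 passed the filter on low counts and 0 passed the test, with median log2 fold changes of -1.10 between the DMM groups and 0.61 between the c-FosWT knees. The chemokine genes Cxcl1, Cxcl2, Cxcl3 and Ccl3 were below the filter, with 81, 33, 5 and 60 counts summed over the 11 libraries. Lta4h, which encodes an enzyme of leukotriene B4 synthesis, was the most abundant, with 207, 149, 86.3 and 48.9 CPM in libraries labelled c-FosDCh, 158, 204 and 255 CPM in c-FosWT DMM and 162, 92.9, 112 and 208 CPM in contralateral libraries. Ppbp, a chemokine gene of platelets and megakaryocytes, had 114, 78.7, 22.8 and 0.477 CPM in libraries labelled c-FosDCh, 194, 139.996 and 245 CPM in c-FosWT DMM and 164, 2.50, 27.9 and 173 CPM in contralateral libraries.

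Erythroid genes, which mark red cell precursors, cells also made in marrow, moved with the neutrophil genes but not in step. Their score, the mean log2 CPM of 15 genes, was 6.52, 7.33, 5.81 and 4.64 in libraries labelled c-FosDCh, 8.17, 8.36 and 8.79 in c-FosWT DMM and 6.51, 6.34, 6.03 and 7.89 in contralateral libraries. All 3 c-FosWT DMM scores lay above the other 8. Their summed level was 736 to 5182 CPM, 9063 to 14600 CPM and 2689 to 7799 CPM in these groups, and none of the markers was at 0 in any library. The neutrophil score minus the erythroid score was 1.00, -0.49, -0.15 and -1.80 in libraries labelled c-FosDCh, -1.10, -0.84 and -0.86 in c-FosWT DMM and 0.52, -0.35, 0.12 and -0.47 in contralateral libraries. The means were -0.357 ± 1.15 (SD, n = 4), -0.934 ± 0.146 (n = 3) and -0.0436 ± 0.453 (n = 4), so relative to the erythroid score the neutrophil score was lower in all 3 c-FosWT DMM libraries than in all 4 contralateral ones. Within the 3 mice with both knees, the erythroid score was higher in the operated knee by 1.66, 2.02 and 0.91, against neutrophil medians of 0.01, 1.57 and 0.54. Between the DMM groups 8 of 15 erythroid genes passed as lower in the libraries labelled c-FosDCh, against 3.79% of all genes. In mean, 15 of 15 were lower (median log2 fold change -2.13). Between c-FosWT DMM and contralateral knees 0 of 15 passed and 15 of 15 were higher in mean (median 1.50). Slc4a1, the anion exchanger gene of red cells, had 245, 562, 168 and 69.7 CPM in libraries labelled c-FosDCh, 1013, 1154 and 1688 CPM in c-FosWT DMM and 301, 252, 169.8 and 776 CPM in contralateral libraries, with a log2 fold change of -2.30 ± 0.67 between the DMM groups (edgeR adjusted p = 0.0477). These erythroid calls were lost when only the 2 DMM groups were fitted, where 0 genes in all passed. With the erythroid score as a covariate, the median log2 fold change of the 31 neutrophil genes was 1.39 between the DMM groups and -1.48 between the c-FosWT knees, the reverse of the values without it, and 0 of 31 passed in either. The c-FosWT DMM scores do not overlap those of the other groups, so group and erythroid score cannot be told apart in that fit.

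**Figure D5:**
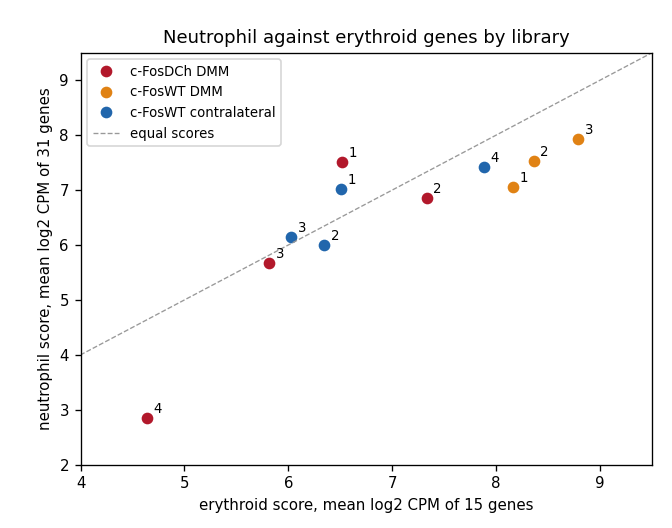
Mean log2 CPM of the 31 neutrophil genes against that of 15 erythroid genes, 1 numbered point per library, coloured by group; the dashed line marks equal scores. The 3 c-FosWT DMM points lie right of the others and below the line, by 0.84 to 1.10, and c-FosDCh DMM replicate 4 lies lowest on both axes.

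Further blood lineages and proliferation genes varied in the same libraries. The 10 eosinophil, basophil and mast cell genes summed to 6.04 to 444 CPM in libraries labelled c-FosDCh, 929 to 1313 CPM in c-FosWT DMM and 196 to 1132 CPM in contralateral libraries, with Ccr3 the 1 gene of them called between the DMM groups, as lower. Megakaryocyte genes summed to 13.7 to 162, 208 to 418 and 29.8 to 207 CPM, with 0 of 5 called. B cell genes summed to 58.7 to 310, 225 to 618 and 255 to 380 CPM, with 0 of 10 called. The 12 cell cycle genes, which precursors but not mature neutrophils use, summed to 132 to 1173, 1746 to 2490 and 549 to 1583 CPM in these groups, with 0 of 12 called and medians of -1.60 between the DMM groups and 1.13 between the c-FosWT knees. Of the 10 genes on the monocyte and macrophage list, 9 had a lower mean in libraries labelled c-FosDCh, set against c-FosWT DMM (median log2 fold change -1.02), with 0 of them called, and F13a1 was called as higher. Of 10 chondrocyte genes, 7 had a higher and 3 a lower mean in libraries labelled c-FosDCh, set against c-FosWT DMM (median 1.26). Of these 10, 4 passed as higher: Prg4, Acan, Comp and Sox9. Across all genes, 10.6% passed as higher and 3.79% as lower between the DMM groups. The calls of Ccr3, F13a1 and the 4 chondrocyte genes were also lost when only the 2 DMM groups were fitted, where 0 genes passed. Acan, the gene of the cartilage proteoglycan aggrecan, had 3630.2, 3876, 9678 and 9088 CPM in libraries labelled c-FosDCh, 1774, 474 and 1408 CPM in c-FosWT DMM and 3230.3, 2459.98, 3531 and 2338 CPM in contralateral libraries. The skeletal muscle score peaked in c-FosWT DMM replicate 1 (8.90) and contralateral replicate 2 (8.19), and leaving out both gave a median of -1.30 for the 31 genes between the DMM groups with 0 called. The part of these other cell types in the neutrophil values was not tested.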

How the data were processed

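Bulk poly(A) RNA of 11 cartilage libraries was analysed: 4 c-FosDCh DMM, 3 c-FosWT DMM and 4 c-FosWT contralateral. The deposited values are whole read counts per gene, which the authors made in the layout of STAR, per the file headers; bcl2fastq 2.19.1.403, STAR 2.6.1a, RSEM, DESeq2 1.22.2 and GRCm38 are named in the submitters' processing notes. The libraries are directional per the labels' protocols, but neither the strand of the counts nor the annotation behind them is given in the sources used here. Read classes that are not genes (unmapped 7.33 to 26.33% of reads, multimapping 6.79 to 10.19%, no feature 33.18 to 41.97%, ambiguous 0.62 to 0.94%) stayed out of library sizes and tests. Symbols came from GENCODE M21, with the same version for 31 of 31 genes, and promoters from RefSeq (GRCm38.p6).

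In R 4.3.3, edgeR 4.0.16 (filterByExpr, TMM, glmQLFit with robust = TRUE, glmQLFTest) fitted all 11 libraries in 1 model with group as the only term, over 18125 genes; all p-values are two-sided and the threshold was a Benjamini-Hochberg adjusted p of 0.05. SE was computed as |log2 fold change| over the root of the F statistic. Log2 CPM used a prior count of 2, and a residual is a gene's log2 CPM minus the gene's and the library's means plus the overall mean. DESeq2 1.42.0 was an alternative; Python 3.11.15 with scipy 1.17.1, pandas 2.3.3 and matplotlib 3.10.9 made the rest. The code was tested on simulated data.

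The genes, stage lists, other lists and named-gene rule (all 31 genes with levels; fold change, SE and adjusted p for the 3 most abundant of each stage list; of other lists, genes called or among the 3 most abundant) were chosen with earlier results of these data known. Replicates are separate knees by their titles, and no pair of a group agreed within sampling noise (lowest chi-square per degree of freedom 31.0). The c-FosDCh libraries were numbered by accession order, because 2 carry the same number; titles name 4 animals. Titles also pair c-FosWT DMM replicates 1, 2 and 3 with contralateral replicates 1, 2 and 4 by animal; the deviations of these pairs from their group means correlated at -0.17, -0.18 and 0.25.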

Additional observations from a re-analysis of the deposited data

How the results depend on the processing

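No neutrophil gene passed under any alternative run: other scalings, no filter on low counts, only the 2 groups compared, the erythroid score as a covariate, the animal as a block (between the c-FosWT knees only), DESeq2, leaving out each library in turn, and, chosen after seeing the data, leaving out the 2 libraries with most muscle RNA. The count over all genes moved. Between the DMM groups it was 2616 in the fit described above, 2554 with the size factors of DESeq2 and 2157 with library totals alone. It was 1443 with no filter on low counts, 0 with only the 2 groups compared and 0 with the erythroid score as a covariate. It was 5358 with DESeq2, 0 without the 2 libraries with most muscle RNA, and 0 to 4626 when each library was left out in turn. With DESeq2 it was 902 between c-FosWT DMM and contralateral knees and 41 between c-FosDCh DMM and contralateral knees, against 0 in both with edgeR; in the second of these, leaving out 1 library gave 0 to 1. The cause was not tested.

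The median log2 fold change of the 31 genes kept its sign, except with the erythroid score as a covariate, where it was -1.48 between c-FosWT DMM and contralateral knees and 1.39 between the DMM groups, and in the comparison of c-FosDCh DMM with contralateral knees. Leaving out 1 library at a time, it ran from 0.53 to 1.05 between the c-FosWT knees, from -1.76 to -0.72 between the DMM groups and from -0.97 to 0.10 between c-FosDCh DMM and contralateral knees. Elane minus Cxcr2 in this last comparison ran from -0.071 to 0.55, with its sign turned without contralateral replicate 2. Early minus late turned there to 0.06 without contralateral replicate 3.

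With the erythroid covariate the named genes turned to -1.68 (Mpo), -1.82 (Elane), -1.59 (Prtn3), -1.73 (Ngp), -1.37 (Ltf), -1.83 (Camp), -1.46 (Retnlg), -1.48 (Mmp8), -1.29 (Csf3r), -1.30 (Lyz2), -1.81 (S100a9) and -2.03 (S100a8) between the c-FosWT knees. Between the DMM groups they turned to 1.38 (Mpo), 1.68 (Elane), 1.37 (Prtn3), 2.01 (Ngp), 1.64 (Ltf), 2.20 (Camp), 1.40 (Retnlg), 1.38 (Mmp8), 0.94 (Csf3r), 1.27 (Lyz2), 1.83 (S100a9) and 2.01 (S100a8). Between c-FosDCh DMM and contralateral knees Ngp (0.27), Ltf (0.27), Camp (0.36) and S100a9 (0.019) turned with this covariate, and Camp also with no filter on low counts (0.0017). Leaving out 1 library there gave -1.05 to 0.33 for Ngp, -0.76 to 0.34 for Ltf, -0.91 to 0.41 for Camp, -0.79 to 0.10 for Retnlg, -0.89 to 0.0081 for Mmp8, -0.81 to 0.083 for Lyz2, -1.21 to 0.028 for S100a9 and -1.11 to 0.019 for S100a8.

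With the animal as a replicate block, the median between the c-FosWT knees was 0.67 and 0 of 31 genes passed; Elane minus Cxcr2 differed by -0.04 over the 3 pairs. The block changed no call. Each of the 31 genes had at least 10 counts in every library, and the median SE of their fold changes between the DMM groups was 0.77, against 0.25 over all genes.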
